A study of Mus musculus with 4 samples.

Results

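The genes described here are 39 genes of homologous recombination, the Fanconi pathway and replication fork protection, out of 32285 genes counted. They were taken as a fixed list by name, with no cutoff on a measured value, and all 39 were found among the counted genes. Earlier results of these data were known when the list was chosen. By role they comprise 13 recombination genes, 12 Fanconi genes, 11 genes of DNA end resection and checkpoint signalling, and 3 fork remodellers. Transcripts were counted cell by cell, with 3′ droplet chemistry, in organoids from mammary glands of virgin female mice aged 9 to 11 months, 3 mice per condition in the study. There were 4 libraries, 1 for each combination of genotype and treatment: wild type (WT), wild type with hydroxyurea (WT-HU), Brca2mut/WT (B2) and Brca2mut/WT with hydroxyurea (B2-HU). Brca2mut/WT mice carry a germline truncating mutation in 1 of the Brca2 alleles, in every cell and not in the epithelium alone. Hydroxyurea, an inhibitor of ribonucleotide reductase, was given at 1 mM for 24 h and followed by 4 days of recovery, repeated over passages. Organoids of all groups were frozen, thawed and grown for 3 days before capture. The study sampled passages 0 and 4. The labels state 2 replicates in each library but not their passage, and give no key to the 4 antibody tags, so each condition was a single library with no replicate, and no test between conditions was run. Tags were read at the 3′ end of transcripts and do not tell the truncated Brca2 allele from the intact allele, so the Brca2 counts do not check the genotype.

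Homologous recombination repairs broken DNA from an intact copy, usually the sister chromatid, and is therefore used in S and G2 phase. BRCA1 with its partner BARD1 and the MRE11-RAD50-NBN complex prepare the broken end, and PALB2 brings BRCA2 to it for the repair step. The Fanconi core complex (FANCA, B, C, E, F, G, L and M) ubiquitinates the FANCI-FANCD2 pair at stalled forks and crosslinks, and ATR with ATRIP signals through CHEK1 to hold the cycle. In mammary epithelium these genes are best known because inherited mutations of several of them predispose to breast cancer.

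Many replication genes are switched on by E2F factors, so the promoters of the members were searched for 4 words on both strands, namely TTCCCGC and its close variants spelled TTGGCGC, then spelled TTCGCGC, and then spelled TTGCCGC. RefSeq promoter windows (GRCm38.p6, 250 bases before to 50 after the start) were matched for 31 members, 5 of them with more than 1 window, for 36 windows in all. An E2F word was found in 17 of the 36 windows (47.2%), against 9.57% of all 32851 windows. It was found in 13 of the 24 windows of members that rose in S-high cells, described below, and in 4 of the 12 windows of the other members. The word CCAAT was found in 69.4% of the members' windows and 37.4% of all windows, and TTTGAA or TTCGAA in 19.4% and 19.2%. Base composition was not matched, and a match says only that these letters are in the window. Shown are 4 members that rose in S-high cells, among them Chek1, Brca1 and Brca2 with their highest levels there and Fanci with its highest level in cycling cells, and Smarcal1, which was not called in any luminal state and has no E2F word. Members that rose in S-high cells without an E2F word, such as Palb2 and Mre11a, are not shown. Nor are members with the word that were not called there, such as Bod1l and Rad52. Letters run 5′ to 3′ on the strand of the gene, and capitals mark the E2F words.

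Chek1 (chr9:36726609-36726908, minus strand): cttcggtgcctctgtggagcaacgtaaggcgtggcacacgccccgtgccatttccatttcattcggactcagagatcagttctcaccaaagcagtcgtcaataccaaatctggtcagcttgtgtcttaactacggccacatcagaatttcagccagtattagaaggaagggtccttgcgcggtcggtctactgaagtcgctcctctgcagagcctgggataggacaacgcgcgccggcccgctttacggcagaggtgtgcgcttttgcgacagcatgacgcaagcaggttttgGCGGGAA

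Brca1 (chr11:101551906-101552205, minus strand): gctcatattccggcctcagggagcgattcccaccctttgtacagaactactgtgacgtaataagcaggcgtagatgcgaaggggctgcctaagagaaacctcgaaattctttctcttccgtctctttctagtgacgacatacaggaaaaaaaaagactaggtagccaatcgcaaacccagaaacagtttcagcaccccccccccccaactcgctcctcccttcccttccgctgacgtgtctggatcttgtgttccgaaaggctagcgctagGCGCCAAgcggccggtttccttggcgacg

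Brca2 (chr5:150522371-150522670, plus strand): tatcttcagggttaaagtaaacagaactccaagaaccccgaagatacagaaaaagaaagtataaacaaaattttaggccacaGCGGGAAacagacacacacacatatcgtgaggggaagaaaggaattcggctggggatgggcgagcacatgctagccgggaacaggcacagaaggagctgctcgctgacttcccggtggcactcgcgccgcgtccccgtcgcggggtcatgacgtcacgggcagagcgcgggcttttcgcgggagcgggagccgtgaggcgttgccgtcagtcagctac

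Fanci (chr7:79392088-79392387, plus strand): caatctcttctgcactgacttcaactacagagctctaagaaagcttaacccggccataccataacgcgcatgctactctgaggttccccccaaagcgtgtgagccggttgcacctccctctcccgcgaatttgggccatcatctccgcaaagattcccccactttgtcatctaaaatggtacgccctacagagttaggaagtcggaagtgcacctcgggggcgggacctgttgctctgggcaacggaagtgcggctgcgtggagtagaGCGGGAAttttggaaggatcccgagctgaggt

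Smarcal1 (chr1:72583001-72583300, plus strand): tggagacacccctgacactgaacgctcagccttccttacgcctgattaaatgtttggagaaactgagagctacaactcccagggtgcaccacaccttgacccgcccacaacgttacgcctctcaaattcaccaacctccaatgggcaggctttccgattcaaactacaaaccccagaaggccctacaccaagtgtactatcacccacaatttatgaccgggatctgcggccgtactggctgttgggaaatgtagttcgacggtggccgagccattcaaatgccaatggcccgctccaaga

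The word starts at base 44 after the start in Chek1, at base 22 in Brca1, at base 19 in Fanci and at base -168, upstream of the start, in Brca2. No window was matched for Fancd2, Rad50, Rbbp8, Rad51d, Xrcc2, Nbn, Exo1 and Rad54b.

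The libraries held 243430259 to 302135155 gene UMIs (unique molecular identifiers) each, in 7639 to 9358 cells. The filter of the study, 1000 to 6000 detected genes and under 5% mitochondrial UMIs, left 17360 of 33268 cells, and 8627 cells lay above its upper gene limit. The study reports more cells kept after its quality control than these libraries held before the filter. The reason for that difference was not settled. Cells were sorted by genes that are not members: basal cells by Krt14 of at least 500 CPM (UMIs per 1000000 gene UMIs), HR- luminal cells by Krt14 and Areg under 300 CPM, and Areg-high cells by Areg of at least 500 CPM with Krt14 under 300 CPM. Cycling cells had a summed Cenpf, Ccnb2 and Cdc20 of at least 200 CPM and other cells under 50 CPM. Among other HR- luminal cells, S-high cells had a summed Mcm3, Mcm5, Mcm6, Cdc6, Uhrf1 and Ccne2 of at least 400 CPM and resting cells under 150 CPM. Most markers followed the gates. Krt5 was at 1574 to 2708 CPM in basal and 13.7 to 33.3 CPM in HR- luminal cells, Csn3 at 18417 to 21755 CPM in HR- luminal cells, and Prlr at 1087 to 1481 CPM and Foxa1 at 114 to 139 CPM in Areg-high cells. Of the 4 stromal markers, which summed to 661 to 2051 CPM in Areg-high and 3.88 to 9.24 CPM in HR- luminal cells, 1 was high in Areg-high cells, Dcn at 659 to 2051 CPM, while Col3a1 was at 0 and Col1a1 and Pdgfra were no higher than in HR- luminal cells. The exceptions were Krt8 and Krt18, listed with the HR- luminal markers but higher in Areg-high cells (Krt8 at 3130 to 3908 CPM against 983 to 1111 CPM), and Mylk, listed with the basal markers, whose levels overlapped between basal and HR- luminal cells. The immune marker Ptprc was at 0.0 CPM in all these classes. HR- luminal cells comprised 221, 175, 254 and 166 cycling cells, 50, 52, 86 and 53 S-high cells and 3550, 2963, 3030 and 2336 resting cells in WT, WT-HU, B2 and B2-HU. The S-high cells of B2-HU were shallower, with a median of 12111 UMIs against 27327 to 29558 in the other libraries. Between the limits for other and cycling lay 142 to 317 HR- luminal cells per library. In all, 129 cell barcodes occurred in more than 1 library.

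To ask in which part of the cycle the repair genes are expressed, S-high were compared with resting HR- luminal cells within each library. Of the 39 members, 27 were higher in S-high cells, 1 was lower and 11 were not called (edgeR quasi-likelihood test with library as a block, Benjamini-Hochberg adjusted p under 0.05 over 13768 genes). Of all genes tested, 14.3% were higher and 13.8% lower. The median log2 change was 1.64 over the members and -0.06 over all genes. The summed level of the members was 264 to 298 CPM in resting and 667 to 776 CPM in S-high cells, with no overlap between libraries. By role, 10 of 13 recombination genes, 7 of 12 Fanconi genes, 9 of 11 resection and checkpoint genes and 1 of 3 fork remodellers were higher.

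Among the recombination genes, Brca1 stood at 0.771, 0.624, 0.881 and 0.613 CPM in resting cells of WT, WT-HU, B2 and B2-HU. In S-high cells it stood at 30.3, 42.2, 40.5 and 33.6 CPM. All S-high values lay far above all resting values, and the change was 5.59 ± 0.23 (SE) on the log2 scale (edgeR adjusted p = 1.60e-24). Brca2, whose product acts on resected ends, stood at 3.88, 3.81, 2.97 and 3.02 CPM in resting cells. Its S-high values were 34.8, 34.5, 34.0 and 18.9 CPM, the last from 18 UMIs (exact Poisson 95% interval 11.2 to 29.9). The groups did not overlap, and Brca2 was 8.71-fold higher, or 3.12 ± 0.19 on the log2 scale (edgeR adjusted p = 3.20e-18). The strongest log2 change of this role was in Rad54b, a DNA translocase, at 5.75 ± 0.40. Its counts share a strand and locus with Fsbp and cannot be assigned with certainty. The changes of Bard1 (4.47), Rad51c (3.86), Rad54l (3.81), Palb2 (2.37), Xrcc2 (2.10), Xrcc3 (1.73) and Rad51b (1.34) were smaller on the same scale, and Rad51b was not called without WT-HU or with S-high cells of at least 600 CPM. RAD51B, RAD51C, RAD51D and XRCC2 form a complex, and its genes were not called alike. Rad51d stood at 15.2 to 19.2 CPM in resting and 21.5 to 26.8 CPM in S-high cells without overlap, but at 0.35 ± 0.15 log2 it was not called. Rad52 and Bod1l, a fork protection factor, were not called either, with log2 changes of -0.45 ± 0.38 and 0.02 ± 0.09.

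**Figure D1:**
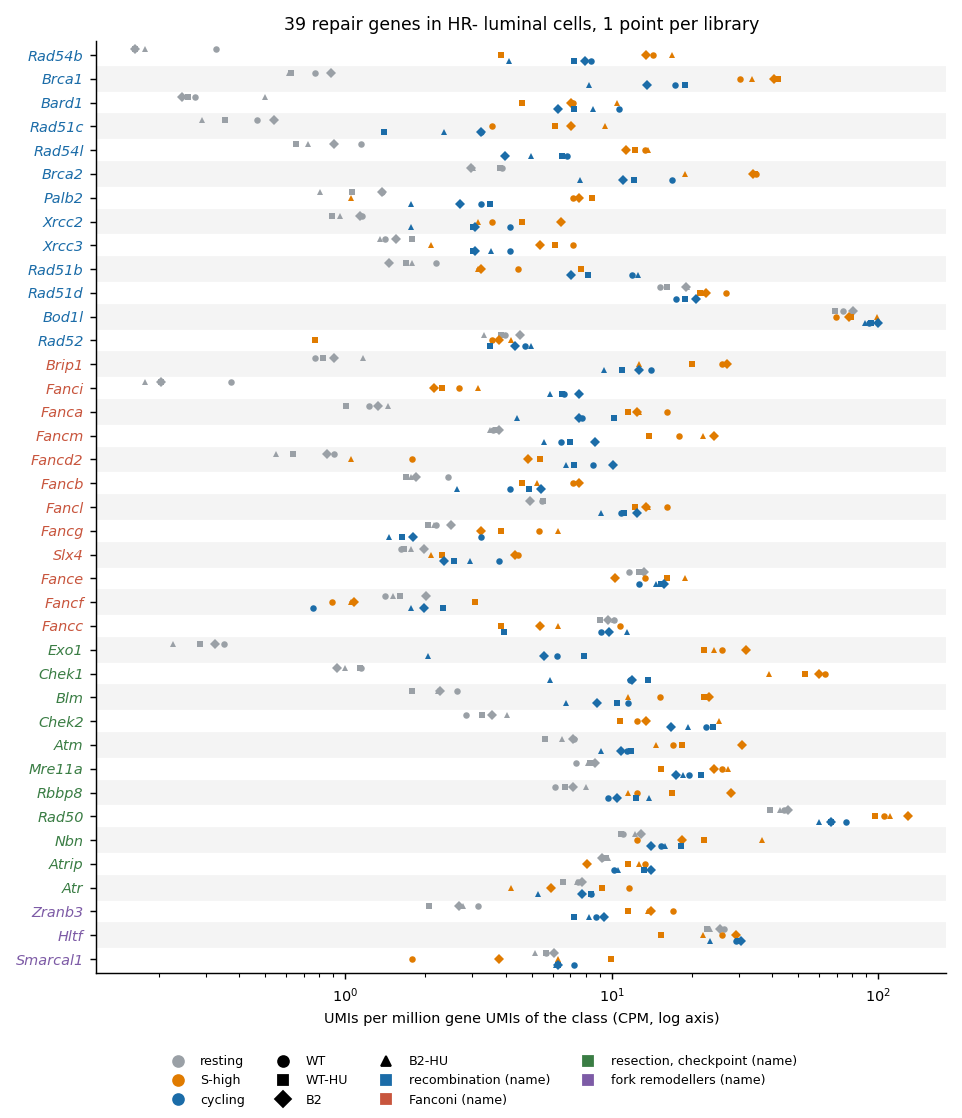
Level of each of the 39 members (CPM, log axis) in resting (grey), S-high (orange) and cycling (blue) HR- luminal cells, with 1 point per library and its shape giving the library. Brca1, Chek1 and Exo1 have their S-high points to the right of all their cycling points, while Fanci has its cycling points to the right, and the points of Hltf overlap in all 3 states.

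In the Fanconi group, Brip1, a helicase that binds BRCA1, rose most. It stood at 0.771, 0.827, 0.908 and 1.16 CPM in resting cells and at 25.9, 19.9, 27.0 and 12.6 CPM in S-high cells, a log2 change of 4.52 ± 0.27. The members of the core complex split. Fanca (3.33), the DNA-binding subunit Fancm (2.36), Fancb (1.64) and the ubiquitin ligase Fancl (1.31) were higher on the log2 scale, whereas Fance (0.10 ± 0.19), Fancf (-0.19 ± 0.56) and Fancg (0.92 ± 0.37) were not called. Fancc was the single member called lower, at 10.2, 9.01, 9.65 and 10.2 CPM in resting and 10.7, 3.84, 5.4 and 6.30 CPM in S-high cells. WT was higher, not lower, in S-high cells, so the groups overlapped, and the log2 change of -0.68 ± 0.25 (edgeR adjusted p = 0.0388) was lost with DESeq2, with the wider cell filter, with cells of 1 tag, with either stricter choice of S-high cells, and without WT-HU, B2 or B2-HU. Fancc also overlaps Gm16132 on its strand. The ubiquitinated pair Fanci and Fancd2 rose by 3.33 ± 0.66 and 2.18 ± 0.50 on the log2 scale. Slx4, a nuclease scaffold, was not called at 0.88 ± 0.42.

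Among the resection and checkpoint genes, Exo1, a nuclease that extends resection, changed most. It stood at 0.351, 0.285, 0.325 and 0.226 CPM in resting and 25.9, 22.2, 31.8 and 24.2 CPM in S-high cells, a log2 change of 6.37 ± 0.28 (edgeR adjusted p = 2.65e-23). Chek1, the effector kinase of ATR, stood at 1.15, 1.14, 0.935 and 1.0 CPM in resting and 63.3, 52.9, 59.9 and 38.9 CPM in S-high cells. Its log2 change was 5.61 ± 0.20, whereas its activators Atr (0.01 ± 0.26) and Atrip (0.17 ± 0.21) were not called. Atrip shares strand and locus with Trex1. The helicase gene Blm (3.00), the effector kinase gene Chek2 (2.05) and Atm (1.60) were higher, as were the genes of the MRE11 complex, Mre11a (1.43), Rad50 (1.30) and Nbn (0.80), and of its cofactor CtIP, Rbbp8 (1.32). Of the fork remodellers, Zranb3 rose by 2.34 ± 0.25 on the log2 scale, from 2.06 to 3.15 CPM in resting to 11.5 to 16.9 CPM in S-high cells. Smarcal1 (-0.15 ± 0.31) and Hltf (-0.13 ± 0.14), which reverse stalled forks with it, were not called. The count of 27 higher members was also found with S-high and resting cells of at least 10000 UMIs, a limit set after the data were seen, which left 28 S-high cells in B2-HU.

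Cycling HR- luminal cells, which carry G2 and mitotic transcripts (Mki67 at 289 to 375 CPM against 25.9 to 36.7 CPM in S-high cells), were then compared with S-high cells. Of the 33 members that passed the count filter, 3 were higher and 13 lower in cycling cells (edgeR adjusted p under 0.05), against 9.61% and 12.8% of all genes tested. The 6 members that were not tested were Palb2, Rad51c, Xrcc2, Fancf, Fancg and Slx4. Chek1 fell most, from the S-high values above to 11.7, 13.7, 11.9 and 5.86 CPM in cycling cells, a log2 change of -2.41 ± 0.14 (edgeR adjusted p = 5.61e-09). Exo1 (-2.34), Fancm (-1.57), Brca2 (-1.49 ± 0.16), Brca1 (-1.45), Rad54l (-1.30), Blm (-1.08), Atm (-1.05), Brip1 (-0.99), Fanca (-0.89), Zranb3 (-0.83), Rad50 (-0.82) and Rbbp8 (-0.77) were lower too. Of these, Fanca, Zranb3 and Rbbp8 were not called with DESeq2 or without WT, Fanca and Rbbp8 not without B2, Rbbp8 not without WT-HU, and Fanca and Zranb3 not with the wider cell filter. The genes of the Fanconi pair went the other way. Fanci stood at 2.68, 2.30, 2.16 and 3.15 CPM in S-high and 6.63, 6.51, 7.56 and 5.86 CPM in cycling cells, without overlap, at 1.32 ± 0.36 log2 (edgeR adjusted p = 0.0139). Fancd2 changed by 1.12 ± 0.35 and Rad51b by 0.93 ± 0.32. None of these 3 calls held with DESeq2, without B2 or with S-high cells of at least 600 CPM, and the S-high sums behind Fanci were low. Bard1 (0.05 ± 0.27) and Chek2 (0.35 ± 0.21) were not called.

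**Figure D2:**
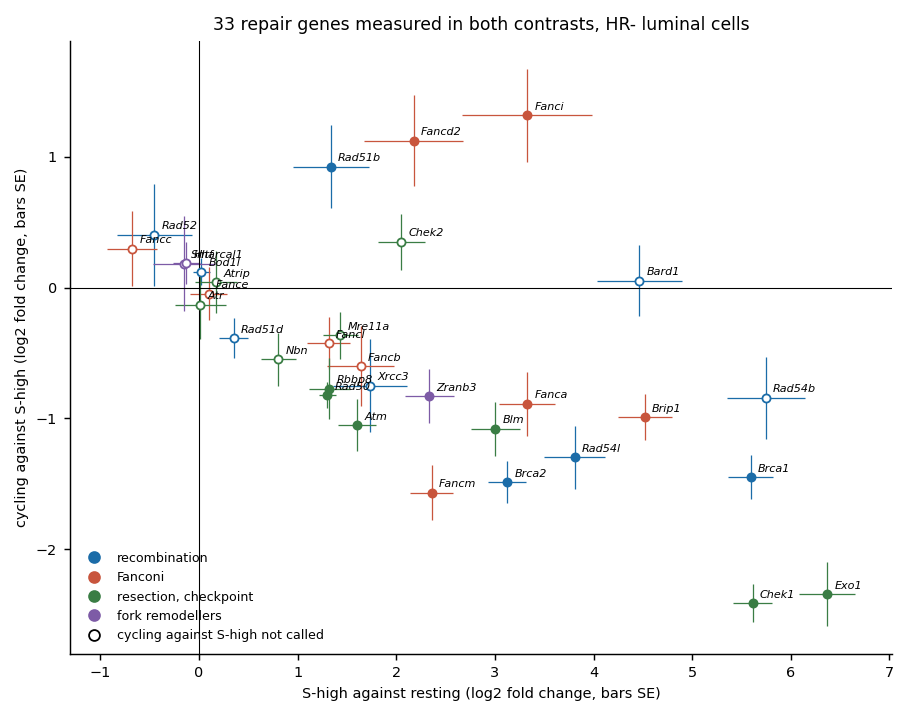
Log2 change of each of the 33 members tested in both contrasts, S-high against resting HR- luminal cells (x axis) and cycling against S-high cells (y axis), with SE bars and filled points where the second contrast was called. Chek1 and Exo1 lie lowest at -2.41 and -2.34, and Fanci, Fancd2 and Rad51b are the filled points above 0.

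Against other HR- luminal cells, 28 of 39 members were higher in cycling cells and 0 lower (edgeR adjusted p under 0.05 over 14077 genes). The background was 25.4% of genes higher and 26.9% lower. The median log2 change was 0.97 over the members and -0.03 over all genes. Each of the 28 was higher in 4 of 4 libraries, which are the libraries of the test itself and so give no separate support. The largest log2 changes were in Fanci (4.30 ± 0.26), Bard1 (4.05), Rad54b (3.79), Fancd2 (3.22), Brca1 (3.18) and Brip1 (2.99). Brca2 stood at 4.47, 4.55, 3.84 and 3.51 CPM in other and 16.9, 12.1, 10.99 and 7.62 CPM in cycling cells, a log2 change of 1.41 ± 0.15 (edgeR adjusted p = 1.56e-06). The changes in Bod1l (0.18), Nbn (0.28), Rad50 (0.47), Atm (0.51) and Rbbp8 (0.53) were small though called. Rad51d, Rad52, Fancc, Fance, Fancf, Fancg, Slx4, Atr, Atrip, Smarcal1 and Hltf were not called, with log2 changes between -0.32 (Fancc) and 0.56 (Slx4).

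In basal cells the same contrast rested on 78, 123, 29 and 34 cycling cells, and 28 of the 39 members passed the count filter. Of the 39, 14 were called higher, 0 lower, 14 not called and 11 not tested (edgeR adjusted p under 0.05), against 20.1% of genes higher and 16.4% lower. The members higher in basal cells were Fanci (4.21 ± 0.50 log2), Brip1 (2.97), Bard1 (2.36), Blm (2.33), Exo1 (1.68), Chek2 (1.64), Brca1 (1.53), Brca2 (1.51 ± 0.31), Chek1 (1.45), Fancl (0.73), Mre11a (0.60), Atrip (0.57), Rad50 (0.50) and Fance (0.44). Brca2 stood at 3.69, 4.61, 4.98 and 3.83 CPM in other basal and 10.1, 16.7, 1.61 and 13.6 CPM in cycling basal cells, where the B2 value was a single UMI. It was thus higher in 3 of 4 libraries and lower in B2. Without WT-HU, which held more cycling basal cells than any other library, 7 members were called. Brca2, Brca1, Rad50, Mre11a, Fancl, Atrip and Fance were lost. Of all genes tested, 1354 of 11005 were then higher, against 2248 of 11191 in the full fit. With the stricter cycling gate 9 were called, where Fanci, Bard1, Exo1 and Brca1 no longer passed the count filter and Mre11a was not called. Fanci also fell under the count filter with cells of 1 tag and with cells of at least 10000 UMIs. With the wider cell filter 31 were called. Of all genes tested, 2025 of 10863 were higher with the stricter gate and 2947 of 13142 with the wider filter.

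The change with cycling was then compared between the lineages by an interaction term. In that fit all 39 members were tested, 0 were called higher and 1 lower in basal cells (edgeR adjusted p under 0.05), against 2.42% and 1.25% of genes, or 3.67% in either direction. The member was Rad51b, which encodes a subunit of the complex with RAD51C, RAD51D and XRCC2. In HR- luminal cells it stood at 2.22, 1.87, 1.59 and 1.90 CPM in other and 11.9, 8.13, 7.02 and 12.6 CPM in cycling cells. In basal cells it stood at 17.9, 16.2, 16.5 and 8.50 CPM in other and 16.9, 21.2, 11.3 and 13.6 CPM in cycling cells. The luminal values separated by state and the basal values overlapped, and the log2 changes were 2.23 ± 0.18 and 0.19 ± 0.19. In the joint fit over both lineages, which estimates the difference with its own scaling and spread, it was -1.94 ± 0.32 (edgeR adjusted p = 0.00416). It ranged from -2.29 to -1.44 over the alternatives and was not called without WT (adjusted p = 0.0671). Brca1 (-1.45 ± 0.41) and Bard1 (-1.54 ± 0.44) were not called here and were called by DESeq2, and Brca1 was also called by edgeR without the low-count filter (-1.40), with the wider cell filter (-0.80) and with the stricter cycling gate (-1.61).

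**Figure D3:**
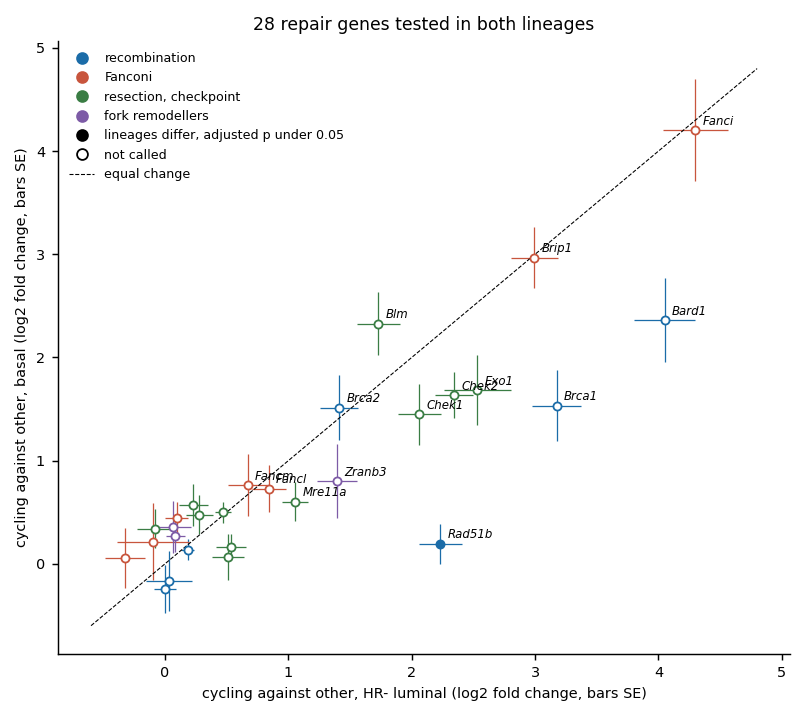
Log2 change of cycling against other cells for the 28 members tested in both lineages, HR- luminal on the x axis and basal on the y axis, with SE bars and the dashed line at equal change. Rad51b, the filled point, lies at 2.23 in HR- luminal and 0.19 in basal cells.

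Between lineages, other basal cells were compared with other HR- luminal cells to ask whether repair gene levels differ outside the mitotic gate. Of 39 members, 13 were higher in basal cells and 6 lower (edgeR adjusted p under 0.05), against 31.4% and 32.0% of genes, or 63.4% in either direction, so the members' shares lay near or under the background. The gate for other cells did not take S phase out evenly, and the S gate genes summed to 44.8 to 87.1 CPM in basal and 25.6 to 32.2 CPM in HR- luminal cells. The part of that in the result was not tested. Rad51b was 7.03-fold higher (2.81 ± 0.18 log2), from the values above, with no overlap. Rbbp8, the gene of the resection factor CtIP, stood at 6.28, 6.98, 7.69 and 8.09 CPM in HR- luminal and 36.8, 42.7, 40.5 and 48.1 CPM in basal cells. It was 5.28-fold higher (2.40 ± 0.07 log2, edgeR adjusted p = 3.45e-08). The other higher members changed less, from 0.26 (Rad50) to 1.12 (Exo1) on the log2 scale, and comprised Bard1, Rad52, Fancf, Fance, Fancl, Chek2, Atm, Atr and Mre11a. Fanca fell most. It stood at 1.46, 1.32, 1.62 and 1.65 CPM in HR- luminal and 0.665, 0.688, 0 and 0.500 CPM in basal cells, a log2 change of -1.62 ± 0.41. Fancb (-1.10), Rad51d (-1.05 ± 0.11), Blm (-0.84), Fancc (-0.58) and Hltf (-0.32) were also lower. Brca2 was not called, at -0.10 ± 0.15. Without WT, 7 members were called higher in place of 13, with Bard1, Exo1, Rad52, Fancf, Mre11a and Fancl lost. Of all genes tested, 4122 of 14638 were then higher, against 4572 of 14557 in the full fit.

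Areg-high cells numbered 116, 112, 87 and 83 outside the mitotic gate. Compared with other HR- luminal cells, 1 member was higher and 10 lower (edgeR adjusted p under 0.05), against 28.0% and 31.7% of genes, or 59.7% in either direction. The higher member was Rbbp8, at 14.5, 16.5, 16.7 and 14.1 CPM in Areg-high cells (0.90 ± 0.14 log2). Fancc stood at 3.36, 1.87, 2.20 and 3.77 CPM in Areg-high and 10.2, 8.98, 9.49 and 10.2 CPM in HR- luminal cells, a log2 change of -2.03 ± 0.21 (edgeR adjusted p = 1.82e-05). Rad51d stood at 10.8, 7.18, 10.1 and 7.54 CPM in Areg-high against 15.3, 16.2, 19.1 and 19.3 CPM in HR- luminal cells (-1.17 ± 0.16 log2). Neither gene overlapped between the lineages. Brca2 was represented in Areg-high cells by 8, 10, 0 and 2 UMIs, or 2.69, 3.12, 0 and 0.942 CPM, below HR- luminal cells in 4 of 4 libraries (-1.40 ± 0.41 log2, edgeR adjusted p = 0.0147). In B2 the 0 UMIs allow up to 1.62 CPM by the exact Poisson interval. The other lower members were Blm (-1.54), Xrcc3 (-1.51), Zranb3 (-1.25), Fanca (-1.20), Nbn (-0.60), Hltf (-0.54) and Xrcc2, for which the Areg-high cells held 3 UMIs in all and no fold is given. With cells of under 100 CPM of stromal markers, set after the data were seen, 7 members were lower and Zranb3, Fanca and Xrcc3 were lost.

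**Figure D4:**
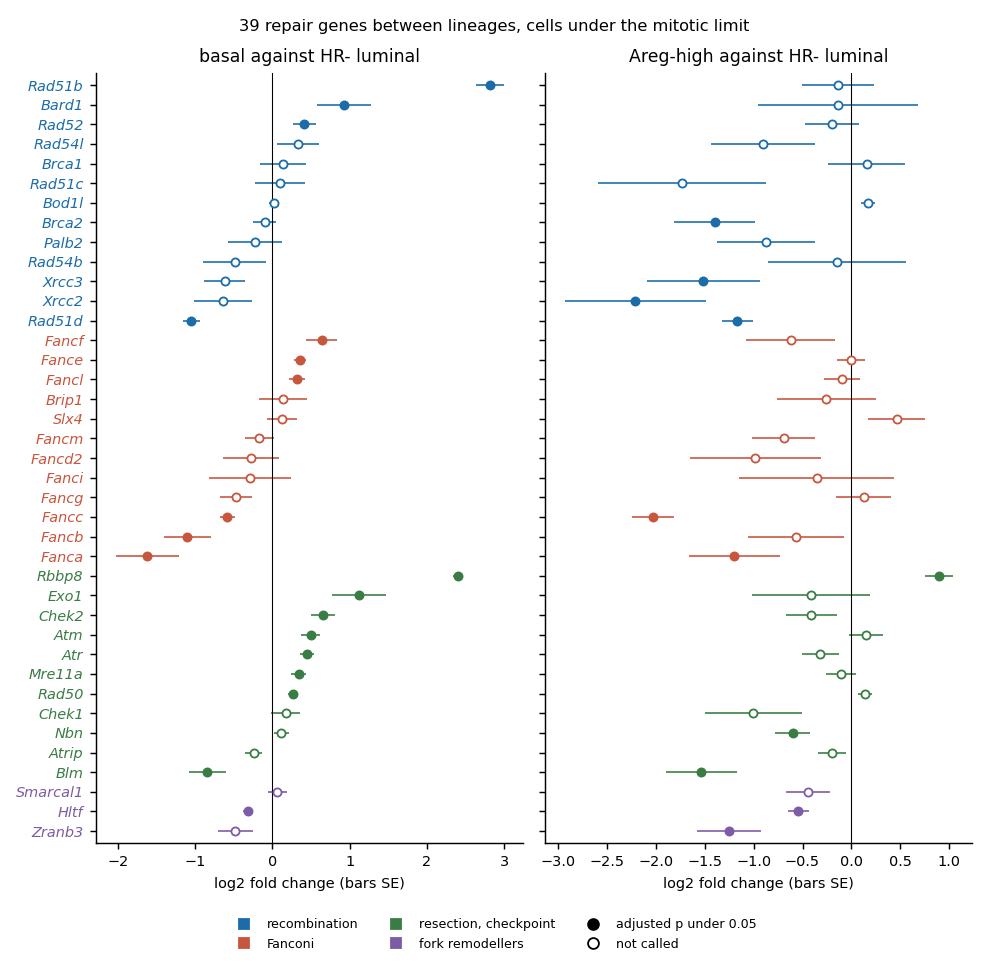
Log2 change of each of the 39 members in basal (left) and Areg-high cells (right) against HR- luminal cells, all outside the mitotic gate, with SE bars and filled points where adjusted p was under 0.05. Rad51b and Rbbp8 lie farthest right in basal cells at 2.81 and 2.40, and Xrcc2 and Fancc farthest left in Areg-high cells.

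Each condition is a single library. A fit of genotype and treatment as separate effects over the 4 libraries, which would leave 1 residual degree of freedom, was not run, and conditions were compared without a test by counting the members past 1.5-fold among those with at least 50 UMIs on average. In other HR- luminal cells 35 members could be compared. Between WT-HU and WT 0 of them lay past 1.5-fold, where 1.58% of genes were past it higher and 2.82% lower. In Brca2mut/WT, 4 were lower in B2-HU than in B2 and 0 higher, against 2.14% and 1.69% of genes. Palb2, which links BRCA1 to BRCA2, stood at 1.53, 1.25, 1.57 and 0.842 CPM, a log2 ratio of B2-HU over B2 of -0.90. Exo1 stood at 0.756, 0.804, 1.21 and 0.686 CPM (-0.81), Fancd2 at 0.920, 0.765, 0.934 and 0.561 CPM (-0.73) and Brca1 at 1.30, 1.44, 1.88 and 1.20 CPM (-0.65). The B2-HU values rested on 54 UMIs for Palb2, 44 for Exo1, 36 for Fancd2 and 77 for Brca1. In B2 over WT 1 of 35 members was higher, Exo1 (0.67), against 1.82% of genes higher and 1.24% lower. Between B2-HU and WT-HU 0 were past 1.5-fold, against 1.98% and 1.18% of genes. The S gate genes summed to 25.6, 28.8, 32.2 and 27.5 CPM in the other HR- luminal cells of WT, WT-HU, B2 and B2-HU, highest in B2. The part of that in these ratios was not tested. The wider cell filter had no upper gene limit and took cells under 10% mitochondrial UMIs. With it, none of the members named above stayed past 1.5-fold in the same comparison. The ratios of B2-HU over B2 were then -0.47 for Palb2, 0.27 for Exo1, -0.33 for Fancd2 and 0.09 for Brca1. In other comparisons 6 ratios lay past 1.5-fold. Rad54b and Fanci were lower in WT-HU over WT, and Bard1, Exo1, Fanca and Brip1 were higher in B2-HU over WT-HU. The share of all genes past it with this filter was not counted.

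In cycling HR- luminal cells 16 members could be compared. Brca2, given above, was lower in B2 than in WT (log2 ratio -0.62) and in B2-HU than in WT-HU (-0.67). Its Poisson intervals were 13.5 to 20.7 CPM in WT, 9.02 to 15.8 in WT-HU, 8.40 to 14.1 in B2 and 4.98 to 11.2 in B2-HU, so only WT and B2-HU were separate from each other. In B2 over WT 1 member was lower and 0 higher, against 1.17% and 1.18% of genes. In B2-HU over WT-HU 3 members were lower, Brca2, Chek1 (-1.23) and Brca1 (-1.20), against 2.63% of genes, and 0 higher, against 3.16%. Of the 16, 15 lay lower in that comparison, with a median of -0.26 over the members and 0.03 over all genes. Past no fold limit, 12 lay lower in B2-HU over B2, 8 in B2 over WT and 3 in WT-HU over WT. In other HR- luminal cells 26 of 35 members lay lower in B2-HU over B2 and 18 in WT-HU over WT. There 13 of 35 lay lower in B2-HU over WT-HU and 8 of 35 in B2 over WT. The median of B2-HU over B2 in these other cells was -0.13 over the members and 0.01 over all genes. There the medians were 0.12 and 0.05 in B2 over WT, 0.04 and 0.05 in B2-HU over WT-HU, and -0.03 and 0.0002 in WT-HU over WT. In cycling cells they were -0.21 and 0.01 in B2-HU over B2, -0.03 and 0.04 in B2 over WT, and 0.10 and 0.02 in WT-HU over WT. The share of all genes lying lower was not counted, so these counts of direction cannot be read as particular to the members. In cycling cells Chek1 (-1.02) and Brca1 (-0.72) were past 1.5-fold lower in B2-HU over B2 and 0 higher, against 3.12% and 2.21% of genes. In WT-HU over WT 0 lay past 1.5-fold, against 1.95% higher and 3.05% lower. The genes of the S gate summed to 128, 157, 96.2 and 80.8 CPM in the cycling cells and the G2/M markers to 1751, 1770, 1730 and 1407 CPM. Both sums were lowest in B2-HU, and their part in these ratios was not tested.

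These differences between libraries depended on which cells were kept. With cells of exactly 1 tag, which leaves out cells with no tag too, they were larger for Brca1, Chek1 and Brca2 in cycling HR- luminal cells. In B2-HU this kept 122 of the 166 cycling HR- luminal cells, and 0.602% of the 166 carried 2 or more tags. Brca1 was at -2.05 in B2-HU over WT-HU and -1.60 in B2-HU over B2, where B2-HU held 14 UMIs. Chek1, then under the limit of 50 UMIs on average, was at -1.52 and -1.41 in the same comparisons. Brca2 was at -0.76 in B2-HU over WT-HU and -0.72 in B2 over WT. In other HR- luminal cells of 1 tag, Exo1 in B2 over WT was at 0.54, no longer past 1.5-fold. Palb2 (-0.89), Exo1 (-0.81), Fancd2 (-0.73) and Brca1 (-0.73) stayed past it in B2-HU over B2, and Rad54l was past it lower in WT-HU over WT. With the wider filter there were 596, 436, 654 and 541 cycling HR- luminal cells in place of 221, 175, 254 and 166, of which 8.41% to 19.0% carried 2 or more antibody tags, a sign of more than 1 cell, against 0% to 2.71%. Brca2 then stood at 18.5, 21.7, 15.1 and 18.3 CPM, Brca1 at 18.3, 22.8, 22.6 and 21.8 CPM and Chek1 at 16.8, 16.8, 17.6 and 15.9 CPM. None of these 3 genes was then past 1.5-fold in any comparison, and Fancf and Fancc were, in B2-HU over WT-HU. Brca2 in Brca2mut/WT over wild type was at -0.29 without and -0.25 with hydroxyurea on the log2 scale. The Poisson interval of Brca2 in B2, 13.8 to 16.4 CPM, then lay under those of all the other libraries. These were 17.0 to 20.0 CPM in WT, 19.8 to 23.8 in WT-HU and 16.9 to 19.9 in B2-HU. Among S-high cells of the main filter, Brca2 stood at 34.8, 34.5 and 34.0 CPM in WT, WT-HU and B2, with B2-HU lower at 18.9 CPM and its interval overlapping theirs.

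**Figure D5:**
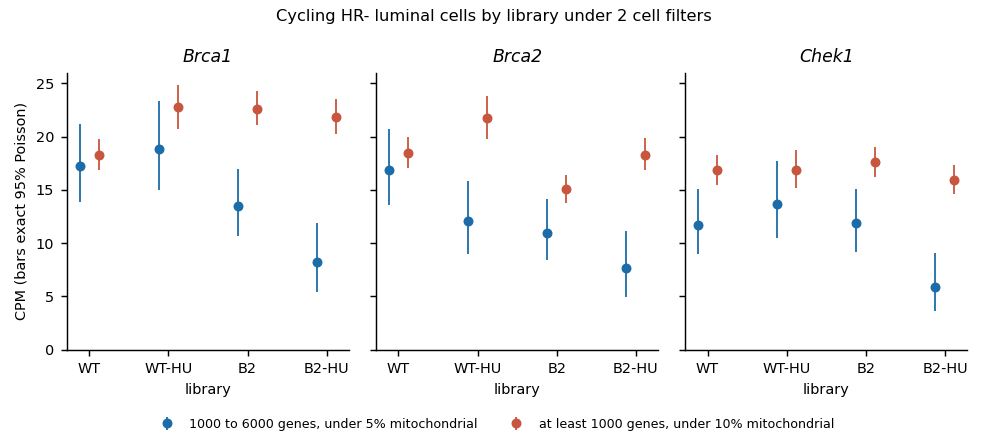
Level of Brca1, Brca2 and Chek1 (CPM, with exact 95% Poisson intervals that cover counting error only) in the cycling HR- luminal class by library, for cells of 1000 to 6000 genes (blue) and without the upper gene limit (red). The B2-HU points of the first filter lie lowest in all 3 genes, at 8.20, 7.62 and 5.86 CPM, and the second filter brings them to 21.8, 18.3 and 15.9 CPM.

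In other basal cells 17 members could be compared. Rad51b was lower in B2-HU than in B2 (-0.95) and WT-HU (-0.93), with the values given above, and its B2-HU interval of 6.33 to 11.2 CPM lay under those of all the other libraries. Chek2 stood at 6.13, 7.57, 4.63 and 7.16 CPM and was higher in B2-HU than in B2 (0.63). Its B2 value rested on 27 UMIs and its B2-HU value on 43, and their intervals overlapped (3.05 to 6.74 and 5.18 to 9.65 CPM). Chek2 and Rad51b made 1 member higher and 1 lower in B2-HU over B2, against 3.49% and 3.57% of genes. In B2-HU over WT-HU 1 was lower, against 3.47%, and 0 higher, against 4.22%. In B2 over WT 0 were past 1.5-fold, against 2.61% of genes higher and 2.47% lower, and in WT-HU over WT 0, against 3.04% and 3.88%. With the wider filter Rad51b stood at 15.6, 12.9, 13.3 and 9.04 CPM and its ratios were -0.55 and -0.52. The ratio of Chek2 in B2-HU over B2 was then 0.30. Exo1, Brca2, Blm and Brca1 were then past 1.5-fold higher in WT-HU over WT, and Blm in B2-HU over B2. Exo1, Brip1, Brca1 and Fancm were past it lower in B2-HU over WT-HU. Brca2 stood at 3.74, 6.05, 4.66 and 5.14 CPM under that filter. Its Poisson intervals were 3.09 to 4.48 CPM in WT and 5.26 to 6.93 CPM in WT-HU, a log2 ratio of 0.69.

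Cells with exactly 1 antibody tag gave 4 unlabelled pools in each library. In cycling HR- luminal cells Brca2 ranged over the pools from 5.59 to 27.6 CPM in WT, 3.78 to 18.9 in WT-HU, 4.93 to 17.6 in B2 and 2.04 to 11.6 in B2-HU. These values rest on 2 to 44 UMIs a pool. Pools 1 and 3 lay above pools 2 and 4 in WT, WT-HU and B2, but not in B2-HU. The cycling cells of pools 1 to 4 numbered 56, 24, 60 and 36 in WT and 44, 47, 24 and 7 in B2-HU. The part of this mix in the differences between libraries was not tested. In other HR- luminal cells the Brca2 values ranged from 3.36 to 4.93, 3.68 to 5.02, 3.50 to 4.46 and 2.84 to 3.83 CPM. The summed members in cycling cells ranged from 424 to 579 CPM over the pools of WT, where the G2/M markers ranged from 1006 to 2180 CPM.

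A list of 45 genes that act with the members was measured beside them. In cycling against other HR- luminal cells 32 were higher and 2 lower (edgeR adjusted p under 0.05), with a median log2 change of 0.63. The background was 25.4% of genes higher and 26.9% lower. In S-high against resting cells 28 were higher and 0 lower, against 14.3% and 13.8% of genes. Large changes in cycling cells were in Parpbp (5.31 ± 0.19 log2), an inhibitor of recombination, Eme1 (3.97), a nuclease subunit, Rad51ap1 (3.69) and Clspn (3.52), an adaptor of CHEK1. Of 13 genes of end joining, the competing repair route, 2 were higher and 2 lower in cycling cells, with a median log2 change of 0.15. The share higher was 15.4%, under the 25.4% of all genes. In S-high cells 5 were higher and 1 lower, and the share higher was 38.5%, above the 14.3% of all genes. The largest changes among them in cycling cells were in Xrcc6 (0.61), Rif1 (0.59) and Paxx (-0.55). Dclre1c (-0.38 ± 0.28) and Nhej1 (0.35 ± 0.19) followed and were not called.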

How the data were processed

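The authors aligned reads and counted unique molecular identifiers with Cell Ranger and deposited them as counts, whole numbers per gene and cell without normalization (32285 genes and 4 antibody tags). Version 6.0.2 is given in the processing notes and 6.1.1 in the file header, and the reference release behind the tables was not settled. The members and lists were chosen with earlier results of these data known. Values are given for members called in cycling or S-high cells, for Brca2 throughout, for members past the rule elsewhere, and for the 5 partner and 5 end joining genes with the largest cycling change. The result for 1 of the partner genes is not reported here.

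Counts were summed over the cells of each library and class. CPM are these sums over the gene UMIs of the class, with exact Poisson 95% intervals, which cover counting error only. Classes were compared within libraries in edgeR 4.0.16 (R 4.3.3; filterByExpr, TMM, quasi-likelihood F-test, library as block, Benjamini-Hochberg), 8 sums per fit with 3 residual degrees of freedom, or 16 sums for the interaction. The replicate is the library, and where nothing names separate animals per library, p-values measure the spread between these 4 libraries. As the conditions differ between libraries, that spread holds any effect of condition. No doublet caller was run. An alternative kept only cells with exactly 1 tag, which left out 245 cells with 2 or more tags and 1791 cells with no tag. On simulated sums for cycling against other HR- luminal cells (14077 genes), 85% of genes changed by 1 log2 unit were called. Of those changed by 2, 95% were called, and of unchanged genes 0.0937%. For S-high against resting cells the shares at 1 and 2 log2 units were lower, at 67% and 83%. They were 65% and 89% for Areg-high against HR- luminal cells, and 70% and 94% for the interaction. Cycling against other basal cells gave 83% and 96%, basal against HR- luminal cells 81% and 96%, and cycling against S-high cells 84% and 96%. The simulation gave all genes the same spread, the median of the fit, and libraries that differed in depth only. Changed genes were drawn at random over all levels. The shares therefore do not hold for members of low counts or of larger spread.

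Alternatives were RLE scaling, DESeq2 1.42.0, no low-count filter, a wider cell filter, cells with 1 tag, no library block, other gates, and leaving out each library. Cells of at least 10000 UMIs and cells under 100 CPM of stromal markers were added after the data were seen. Members on a strand shared with another gene (GENCODE M21, GRCm38) are Brca2 (Gm42531), Rad54b (Fsbp), Fancc (Gm16132) and Atrip (Trex1).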

Additional observations from a re-analysis of the deposited data

Results flagged for a closer look

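Rad51b stood out because its change with cycling differed between the lineages by the test of that difference: -1.94 on the log2 scale in basal minus HR- luminal cells (edgeR interaction, adjusted p = 0.00416), with other basal cells already at 8.50 to 17.9 CPM and other HR- luminal cells at 1.59 to 2.22 CPM. With 1 library per condition, no group was large enough to look for a library far from the others.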

How the results depend on the processing

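No paired analysis was possible because the labels carry no replicate numbers that match samples across conditions, which concerns conditions only, since classes were compared within libraries. Without that library block, 29 members in place of 28 were higher in cycling HR- luminal cells, 28 in place of 27 in S-high cells and 2 in place of 1 in Areg-high cells. With the wider cell filter the counts of members were 31 in place of 14 higher in cycling basal cells, 1 in place of 0 lower in cycling HR- luminal cells, 1 higher and 4 lower in the interaction in place of 0 and 1, 4 in place of 1 higher in Areg-high cells, 0 in place of 1 lower in S-high cells and 5 in place of 3 higher in cycling than S-high cells. Past 1.5-fold between libraries it gave 2 in place of 6 in cycling HR- luminal and 9 in place of 3 in other basal cells. With the stricter cycling gate 9 were higher in cycling basal cells and 2 lower in the interaction. DESeq2 gave 3 lower in the interaction, 0 lower in S-high cells and 0 higher in cycling than S-high cells. Without the low-count filter 1 was lower in cycling HR- luminal cells and 2 in the interaction, and RLE scaling gave 2 higher in Areg-high cells. Cells with 1 tag, S-high cells of at least 600 CPM and cells of at least 10000 UMIs each gave 0 lower in S-high cells. At 600 CPM 0 were higher in cycling than S-high cells, and at 10000 UMIs 1 was lower in cycling HR- luminal cells. At 2-fold 0, 3 and 0 members lay apart between libraries in other HR- luminal, cycling HR- luminal and other basal cells, and TMM scaling gave 5 in the last.

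Leaving out each library in turn gave 26 to 29 members higher in cycling HR- luminal cells, 7 to 15 in cycling basal cells (7 without WT-HU), 0 to 1 lower in the interaction (0 without WT), 7 to 11 higher and 5 to 7 lower in basal cells, 1 to 2 higher and 7 to 9 lower in Areg-high cells, 26 to 27 higher and 0 to 1 lower in S-high cells, and 0 to 3 higher and 11 to 14 lower in cycling than S-high cells (0 higher without B2). Fewer libraries leave fewer residual degrees of freedom. Brca2, not called in either contrast, changed sign in the interaction, at -0.16 with the wider filter, -0.013 with the stricter gate and -0.32 to 0.43 over the libraries left out, and between basal and HR- luminal cells, at 0.11 with all cells of each lineage and -0.21 to 0.017 over the libraries left out. The cause of these shifts was not tested.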
